A study of Mus musculus with 9 samples.

Results

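Osteocalcin and 7 other proteins of mineralised bone are encoded by the 10 genes described here, since mice carry 3 osteocalcin genes: Bglap, Bglap2, Bglap3, Spp1, Ibsp, Dmp1, Mepe, Alpl, Phospho1 and Sparc. They were chosen by name, and all 10 were found among the 30579 genes of an RNA-seq table of mesenchymal stromal cells, the supporting cells of bone marrow, sorted from mouse long bones. The table holds 9 libraries, 3 for each of 3 groups. Young controls were 3 months old and aged controls 18 months old. The third group carried the genotype label aged Thbs1 knockout and was also 18 months old; Thbs1 encodes thrombospondin 1, a secreted matrix glycoprotein. All 3 groups shared the same handling: an antibody against VE-cadherin, a junction protein of blood vessel endothelium, was injected behind the eye 10 minutes before death, cells were sorted by flow cytometry into TRIzol-LS, and 2 ng of total RNA per library went into the SMART-Seq v4 kit. The sources used here do not give the sort gates, the strain or the kind of Thbs1 allele. Nothing in the labels ties each library to a mouse of its own, so the p-values cover the spread between libraries, which may be technical.

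Bone mineral forms in a matrix that osteoblasts secrete. Phosphatases such as tissue-nonspecific alkaline phosphatase (Alpl) and PHOSPHO1 release phosphate or remove the mineralisation inhibitor pyrophosphate, acidic glycoproteins such as osteopontin and bone sialoprotein bind calcium and integrins, and osteocalcin, a small vitamin K-dependent protein, is added late, by mature osteoblasts. Osteocytes, the cells buried in the mineral, add DMP1 and MEPE. In marrow, stromal cells include precursors of osteoblasts, and several of these genes are not private to that lineage: hypertrophic chondrocytes also make Alpl, Ibsp and Spp1, and osteoclasts and macrophages also make Spp1.

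Values are FPKM, fragments per kilobase of transcript scaled to the number of mapped fragments, which can be compared between genes and between libraries as far as library composition allows. The steps between low values put the depth at 17.8 to 27.7 M reads (M, mega) per library. Thbs1 itself, the check of the labels, stood at 74.98, 73.11 and 58.03 FPKM in young controls, at 35.56, 41.89 and 36.85 FPKM in aged controls and at 24.28, 44.55 and 37.05 FPKM in the libraries labelled knockout. The last group overlapped the aged controls (log2 difference −0.15, SE 0.26, limma adjusted p = 0.801), so Thbs1 RNA does not separate it from them, and its samples are called the labelled-knockout libraries throughout. Stromal genes were abundant in all 9 libraries, with the chemokine Cxcl12 at 2873.19 to 6044.06 FPKM and the leptin receptor Lepr at 233.23 to 672.93 FPKM. Labelled-knockout replicate 2 stood apart: its correlations with the other libraries were 0.738 to 0.811, and it had the fewest genes above 0, 13503 against up to 18382. Immunoglobulin genes took 4.27% to 31.9% of estimated reads in aged controls and 19.2% in that library, but 0.00383% to 2.36% in the other 5, and each FPKM is scaled to its library's total. Every limma comparison below was also run with these genes left out. Ranks, counts of overlap, correlations and permutation tests were not.

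In young controls the 10 genes together took 1.89% to 2.2% of all estimated reads, and in aged controls 0.47% to 0.687%. The labelled-knockout libraries lay at 1.58%, 0.556% and 2.31%. Ibsp and Spp1 were the 7th and 8th most abundant of the 30579 genes by mean in young controls, and Sparc ranked 20th. Bglap and Bglap2 ranked 43rd and 51st there, 1426th and 1639th in aged controls, and 50th and 59th in labelled-knockout libraries. Over the young controls the order of mean levels was Ibsp, Spp1, Sparc, Bglap, Bglap2, Alpl, Dmp1, Mepe, Bglap3 and Phospho1. Neighbours overlapped in their libraries for Ibsp and Spp1, for Bglap and Bglap2, and for Mepe and Bglap3, and did not overlap for the other neighbouring pairs. The plot of the 10 genes by library shows this range, from 4868.75 FPKM of Ibsp to 0 of Phospho1.

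**Figure D1:**
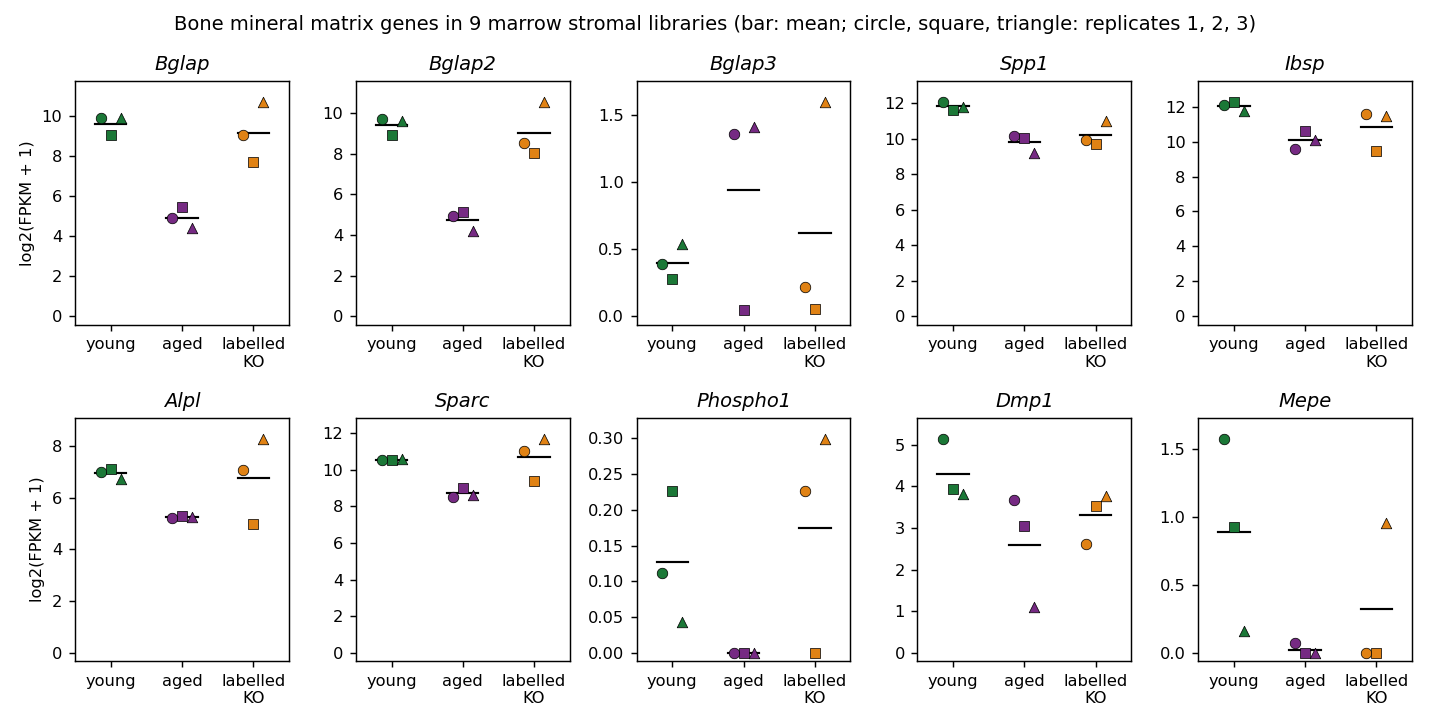
Level of each of the 10 genes in each library, as log2(FPKM + 1) on a separate vertical axis per gene, by group; circles, squares and triangles are replicates 1, 2 and 3, and bars are group means of the log2 values. Bglap and Bglap2 are low in all 3 aged controls, and labelled-knockout replicate 2 (square) is the lowest of its group for Bglap, Bglap2, Spp1, Ibsp, Alpl and Sparc.

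Differences between each pair of groups were tested with limma on log2(FPKM + 1) over the 11988 genes that reached 1 FPKM in at least 3 libraries, 8 of the 10 among them; Phospho1 and Mepe did not reach that level. A gene passed at an adjusted p under 0.05 over all genes tested. In aged against young controls 3 of the 8 fell, Bglap, Bglap2 and Spp1, and none rose, beside 1.47% of all tested genes that fell and 4.04% that passed in either direction. That count of 3 was 6 without labelled-knockout replicate 2, where the genes that fell over all those tested went from 176 to 2118. The count was 0 without young control replicate 1 or 3 or aged control replicate 1, and 2 without any 1 of the other controls. The libraries did not overlap, with aged controls lower, for 7 of the 8, but this was also the case for 37.4% of all tested genes. The median log2 difference of the 8 genes was −1.88, and that of all genes −0.28. In the labelled-knockout libraries relative to aged controls 2 of the 8 rose, Bglap and Bglap2, and none fell, beside 1.52% of tested genes that rose and 3.48% that passed either way; without labelled-knockout replicate 2 the count was 5, and without aged control replicate 1 or 2 it was 0. Over all genes tested, those that rose went from 182 to 1365 without labelled-knockout replicate 2. The libraries did not overlap, with labelled-knockout libraries higher, for 3 of the 8 and for 16.6% of all tested genes. Against young controls none of the 8 passed in the labelled-knockout libraries, where 0.025% of all genes passed. These comparisons share libraries, so they are not independent of each other.

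**Figure D2:**
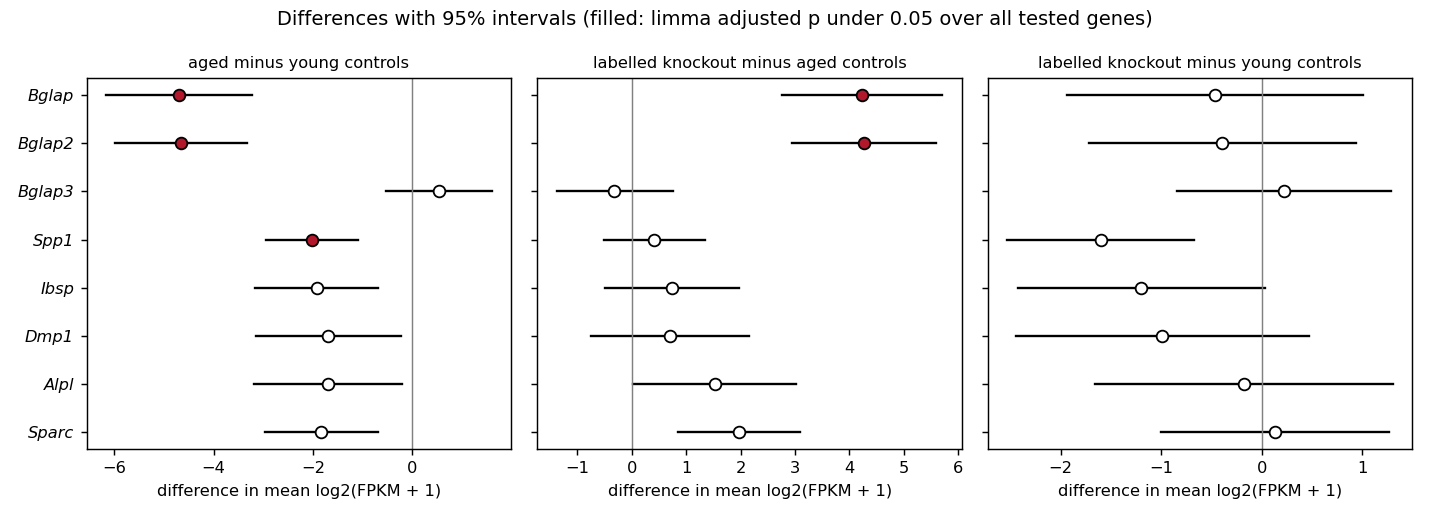
Differences in mean log2(FPKM + 1) with 95% intervals for the 8 tested genes in the 3 comparisons; each panel has its own horizontal axis, and filled points passed limma's adjusted p threshold over all 11988 genes. Bglap and Bglap2 lie near −4.7 with age and above 4 in the labelled-knockout libraries relative to aged controls, and no gene passed against young controls.

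Bglap and Bglap2 had the largest differences of the 8 tested genes in both comparisons with aged controls. Bglap stood at 947.63, 532.82 and 944.48 FPKM in the 3 young controls. In aged controls it stood at 28.87, 42.67 and 20.04 FPKM, and in labelled-knockout libraries at 536.94, 206.87 and 1637.30 FPKM. All 3 aged controls were thus below every other library, while the labelled-knockout libraries overlapped the young controls and spread the most. Bglap fell by 4.70 on the log2 scale with age (95% interval −6.17 to −3.22, limma adjusted p = 0.0107), and the mean in young controls was 26.5 times that in aged controls. In the labelled-knockout libraries relative to aged controls it rose by 4.23 (2.76 to 5.71, adjusted p = 0.019), a ratio of means of 26.0. Because a bulk library mixes cells, fewer osteocalcin-producing cells and less osteocalcin RNA per cell cannot be told apart, here or in any result below.

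Bglap2, the second osteocalcin gene, followed the same pattern. Its values were 834.30, 482.78 and 780.45 FPKM in young controls, 29.21, 34.33 and 17.43 FPKM in aged controls, and 366.06, 260.35 and 1475.61 FPKM in labelled-knockout libraries. It fell by 4.66 with age (SE 0.59, limma adjusted p = 0.00781) and rose by 4.27 in the labelled-knockout libraries relative to aged controls (SE 0.59, adjusted p = 0.0115). The ratio of Bglap to Bglap2 within a library stayed between 0.795 and 1.47, with both extremes in labelled-knockout libraries. Bglap3, the third copy, was at most 2.02 FPKM in any library. It stood at 0.31, 0.21 and 0.45 FPKM in young controls, at 1.57, 0.03 and 1.66 FPKM in aged controls and at 0.16, 0.04 and 2.02 FPKM in labelled-knockout libraries, so its groups overlapped, and it passed in no comparison (log2 0.54, adjusted p = 0.543 with age).

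The 3 copies lie side by side on the minus strand of chromosome 3 in GRCm38, Bglap at chr3:88383501-88384464, Bglap2 at chr3:88377736-88378699 and Bglap3 at chr3:88368616-88372743 in GENCODE M21. Their coding sequences are shown because they set how far reads can be assigned to one copy. Each runs to 288 bases, written 5′ to 3′, and capitals in Bglap2 and Bglap3 mark the bases that differ from Bglap, 4 for Bglap2 (98.6% identity) and 13 for Bglap3 (95.5%).
Bglap: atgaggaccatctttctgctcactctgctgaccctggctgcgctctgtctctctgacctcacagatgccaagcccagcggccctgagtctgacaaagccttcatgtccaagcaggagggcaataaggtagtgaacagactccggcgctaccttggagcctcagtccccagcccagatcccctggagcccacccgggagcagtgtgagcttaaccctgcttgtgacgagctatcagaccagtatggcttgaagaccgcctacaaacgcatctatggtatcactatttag
Bglap2: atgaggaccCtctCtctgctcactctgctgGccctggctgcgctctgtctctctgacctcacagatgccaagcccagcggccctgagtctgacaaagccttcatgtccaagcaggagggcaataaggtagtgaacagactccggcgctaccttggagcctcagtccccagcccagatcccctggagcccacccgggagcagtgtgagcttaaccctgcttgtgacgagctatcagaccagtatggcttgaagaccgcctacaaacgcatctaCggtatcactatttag
Bglap3: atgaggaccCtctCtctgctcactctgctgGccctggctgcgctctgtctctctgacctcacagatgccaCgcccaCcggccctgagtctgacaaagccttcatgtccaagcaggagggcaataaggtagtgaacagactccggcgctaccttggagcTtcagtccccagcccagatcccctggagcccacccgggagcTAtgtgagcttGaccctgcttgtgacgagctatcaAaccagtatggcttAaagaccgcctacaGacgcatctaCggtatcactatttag
Of the 50-base windows of Bglap transcripts, 74.7% also occur in Bglap2 and 20.5% in Bglap3. How the submitters treated reads that fit several copies is not stated by the sources used here, so the split between Bglap and Bglap2 is uncertain, and their values may not be independent of each other. Bglap3 was read over a longer model, 2629 exonic bases, of which only a small share is in common with the others. With Bglap, Bglap2 and Bglap3 added together as 1 gene, the log2 difference was −4.67 with age (limma adjusted p = 0.00836) and 4.25 in the labelled-knockout libraries relative to aged controls (adjusted p = 0.0148).

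Osteopontin and bone sialoprotein, the integrin-binding glycoproteins of bone matrix, were the most abundant of the set in both control groups. Spp1, which encodes osteopontin, stood at 4210.98, 3176.02 and 3489.83 FPKM in young controls. It stood at 1149.40, 1059.53 and 578.35 FPKM in aged controls and at 986.74, 823.46 and 2055.61 FPKM in labelled-knockout libraries. Both 18-month groups lay below all young controls and overlapped each other. Spp1 fell by 2.02 on the log2 scale with age (95% interval −2.94 to −1.09, limma adjusted p = 0.0337), a fall that 6 of the 9 fits without 1 library did not call. Labelled-knockout libraries differed from aged controls by 0.41 (−0.51 to 1.34, adjusted p = 0.626). In GENCODE M21, 18.8% of the exonic bases of Spp1 are shared with the overlapping gene Gm42793 on the same strand.

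Ibsp, which encodes bone sialoprotein, stood at 4363.50, 4868.75 and 3432.58 FPKM in young controls but at 763.97, 1573.87 and 1087.53 FPKM in aged controls. The labelled-knockout libraries split, with 3028.06 and 2784.17 FPKM in replicates 1 and 3 and 719.69 FPKM in replicate 2, the lowest of all 9. The difference with age was −1.93 (−3.16 to −0.70, limma adjusted p = 0.085), and that of labelled-knockout libraries from aged controls was 0.74 (−0.49 to 1.97, adjusted p = 0.495). Neither passed. Without labelled-knockout replicate 2 they became −1.93 (adjusted p = 0.00722) and 1.41 (adjusted p = 0.0321), and both passed.

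Dmp1 and Mepe, glycoproteins of osteocytes and late osteoblasts, were far lower. Dmp1 stood at 34.16, 14.22 and 13.03 FPKM in young controls, at 11.65, 7.25 and 1.15 FPKM in aged controls and at 5.13, 10.57 and 12.65 FPKM in labelled-knockout libraries. Each young control exceeded each library of the other groups, but the differences from young controls did not pass (−1.69, limma adjusted p = 0.171 for aged controls; −0.99, adjusted p = 0.648 for labelled-knockout libraries). Mepe stood at 1.97, 0.90 and 0.12 FPKM in young controls, of which the last rests on an estimated 4.0 reads. It was at 0.05, 0 and 0 FPKM in aged controls and at 0, 0 and 0.94 FPKM in labelled-knockout libraries. A count of 0 allows up to 3 reads, or 0.0644 to 0.1 FPKM of Mepe at these depths. An exact two-sided permutation test of aged against young controls gave p = 0.1 for Mepe, the smallest p that 3 against 3 libraries allow. Sost, the osteocyte gene for sclerostin, was at 0 in all 9 libraries.

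The phosphatases that supply phosphate for mineral differed from each other in measured FPKM by orders of magnitude. Few reads can be assigned to Phospho1 alone, as given below, so the gap in RNA level itself is uncertain. Alpl stood at 126.45, 136.55 and 105.44 FPKM in young controls but at 36.27, 38.01 and 37 FPKM in aged controls, which hardly varied. The labelled-knockout libraries stood at 132.77, 30.51 and 307.37 FPKM, so that replicate 2 was below every aged control and replicate 3 above every other library. Neither the difference with age (−1.69, 95% interval −3.18 to −0.21, limma adjusted p = 0.179) nor that of labelled-knockout libraries from aged controls (1.52, 0.03 to 3.01, adjusted p = 0.242) passed. Without labelled-knockout replicate 2 both did, at −1.69 (adjusted p = 0.00753) and 2.41 (adjusted p = 0.00296).

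Phospho1, the phosphatase of matrix vesicles, was close to the limit of detection. Its values were 0.08, 0.17 and 0.03 FPKM in young controls, 0 in all 3 aged controls, and 0.17, 0 and 0.23 FPKM in labelled-knockout libraries. The highest of these is an estimated 10.0 reads, and a count of 0 allows up to 0.0534 to 0.0831 FPKM. In the annotation 84.2% of its exonic bases also lie in exons of Abi3, on the other strand, and 89.6% in exons of Zfp652, so few reads can be assigned to Phospho1 alone. How reads in shared exons were counted is not stated by the sources used here. The exact permutation p-values (0.1 with age, 0.4 in the labelled-knockout libraries relative to aged controls) cannot pass with 3 libraries a group.

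Sparc, which encodes osteonectin, a collagen- and calcium-binding protein found in many connective tissues, stood at 1501.08, 1459.30 and 1530.59 FPKM in young controls. It stood at 368.70, 510.36 and 389.73 FPKM in aged controls and at 2042.69, 668.56 and 3248.12 FPKM in labelled-knockout libraries. All labelled-knockout libraries exceeded all aged controls, with replicate 2 the nearest to them, and replicates 1 and 3 exceeded all young controls. The differences were −1.84 with age (−2.97 to −0.70, limma adjusted p = 0.079) and 1.97 against aged controls (0.84 to 3.10, adjusted p = 0.0704), neither of which passed. Sparc passed the second comparison under median-ratio rescaling, a correction for library composition (1.84, adjusted p = 0.0423), and both without labelled-knockout replicate 2 (−1.84, adjusted p = 0.00428; 2.62, adjusted p = 0.00142).

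Labelled-knockout libraries against young controls gave no call among the 8 tested genes. At an unadjusted limma p under 0.05 there was 1, Spp1, at −1.60 (95% interval −2.53 to −0.67, adjusted p = 0.381). Its labelled-knockout libraries all lay below the young controls, as did those of Ibsp (−1.20, −2.42 to 0.03) and Dmp1. Such a separation toward lower values held for 13.4% of all tested genes in this comparison. For the osteocalcin genes the intervals were −1.94 to 1.01 for Bglap and −1.72 to 0.94 for Bglap2, wide enough to hold a change of several-fold in the lower direction, so the test does not show that levels were alike. Alpl (−0.17), Sparc (0.13), Bglap and Bglap2 changed sign without labelled-knockout replicate 2 or, for Sparc, without replicate 1 or 3.

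Because FPKM depends on the rest of the library, the genes were also set against each other within each library, where the scaling to the library total cancels. These ratios were chosen after the values were seen and carry no test. Bglap and Bglap2 together, divided by Spp1, gave 0.423, 0.32 and 0.494 in young controls and 0.0505, 0.0727 and 0.0648 in aged controls. The same ratio was 0.915, 0.567 and 1.51 in labelled-knockout libraries, above every young control. Against Ibsp the ratio was 0.209 to 0.503 in young controls, 0.0345 to 0.076 in aged controls and 0.298 to 1.12 in labelled-knockout libraries. Against Sparc it was 0.696 to 1.19, 0.0961 to 0.158 and 0.442 to 0.958 in the same order. Osteocalcin was therefore lower in aged controls relative to each of these 3 matrix genes, and this held in replicate 2 of the labelled-knockout libraries as in the others when set against the aged controls.

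**Figure D3:**
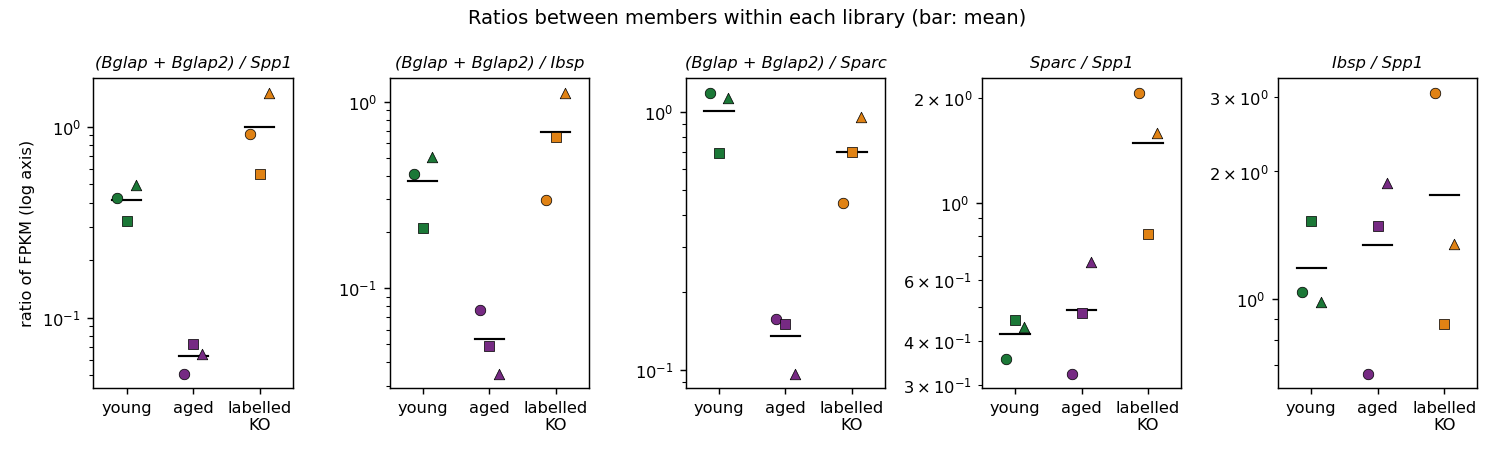
Ratios of FPKM between members within each library, on log axes that differ between panels; circles, squares and triangles are replicates 1, 2 and 3, and bars are means. Osteocalcin (Bglap plus Bglap2) relative to Spp1, Ibsp and Sparc is lowest in the 3 aged controls, while Ibsp over Spp1 overlaps between all groups.

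Sparc and Spp1 parted in the labelled-knockout libraries. Sparc over Spp1 was 0.356, 0.459 and 0.439 in young controls, 0.321, 0.482 and 0.674 in aged controls, and 2.07, 0.812 and 1.58 in labelled-knockout libraries, which exceeded all 6 controls. Ibsp over Spp1 overlapped between all groups, at 0.984 to 1.53, 0.665 to 1.88 and 0.874 to 3.07. Against a stromal gene, osteocalcin over Lepr was 1.54 to 3.69 in young controls, 0.0965 to 0.177 in aged controls and 2.0 to 8.36 in labelled-knockout libraries. Against Col1a1, the main collagen of bone, it was 1.1 to 4.07, 0.365 to 0.47 and 0.93 to 1.51. The aged controls were lowest in both.

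The genes on chromosome 5 lie within 1 cluster on the plus strand, with Dmp1 at chr5:104202613-104214102, Ibsp at chr5:104299171-104311469, Mepe at chr5:104325329-104338611 and Spp1 at chr5:104435118-104441050 (GRCm38, GENCODE M21). Alpl lies at chr4:137741733-137796384, Sparc at chr11:55394500-55423183 and Phospho1 at chr11:95824499-95832140. Of 5 tested genes beside the clusters, none passed in any comparison; at an unadjusted p under 0.05 limma gave 0 with age, 1 in the labelled-knockout libraries relative to aged controls and 1 against young controls. With age the lowest p belonged to Pkd2, a calcium channel gene (−0.36, SE 0.22, adjusted p = 0.373), and Sparcl1, a relative of Sparc, lay at 0.20 (SE 0.25). Sparcl1 differed by 0.88 (SE 0.25, adjusted p = 0.0969) in the labelled-knockout libraries relative to aged controls, and passed without replicate 2 of that group (0.90, adjusted p = 0.0429).

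Bglap2 had no window in the promoter set used here. The 250 bases before the start annotated in RefSeq are shown for Bglap, Spp1 and Ibsp, the other abundant members of the 2 clusters. They are RefSeq windows of GRCm38.p6, written 5′ to 3′ on the gene's strand, Bglap at chr3:88384467-88384716 on the minus strand, Spp1 at chr5:104434861-104435110 and Ibsp at chr5:104299037-104299286 on the plus strand. Capitals mark ACCACA, a core sequence of RUNX factors such as the osteoblast regulator RUNX2, and TATAAA, the TATA box, on either strand (read there as TGTGGT or TTTATA).
Bglap: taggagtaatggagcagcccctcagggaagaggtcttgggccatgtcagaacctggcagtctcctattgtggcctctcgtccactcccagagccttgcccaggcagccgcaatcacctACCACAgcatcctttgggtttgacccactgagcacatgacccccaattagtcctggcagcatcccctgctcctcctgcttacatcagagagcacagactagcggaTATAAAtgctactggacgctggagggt
Spp1: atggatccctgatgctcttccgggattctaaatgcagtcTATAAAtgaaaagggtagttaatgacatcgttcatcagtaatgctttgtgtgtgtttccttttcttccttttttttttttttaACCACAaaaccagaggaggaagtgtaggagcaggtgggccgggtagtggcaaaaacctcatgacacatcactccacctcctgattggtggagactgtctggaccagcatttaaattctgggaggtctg
Ibsp: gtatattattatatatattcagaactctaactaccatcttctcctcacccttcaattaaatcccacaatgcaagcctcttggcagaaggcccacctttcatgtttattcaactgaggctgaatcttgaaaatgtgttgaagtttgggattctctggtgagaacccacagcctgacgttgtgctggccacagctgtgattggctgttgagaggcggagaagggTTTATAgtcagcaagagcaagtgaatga
Bglap had ACCACA with its first base at −132 and TATAAA at −27 from the start, and Spp1 had them at −128 and −211. Ibsp had only TATAAA, on the other strand, at −28. The RefSeq start of Ibsp lies after the GENCODE M21 start given above, so part of its window is inside that gene model. Counted over windows that also take in 50 bases after the start, 9 of the 10 members had 14 windows in the table. ACCACA was in 5 of the 14 and in 16.8% of all 32851 promoter windows, and TATAAA in 5 of the 14 and in 13.6%. TAATTA, a core of homeodomain factors, was in 3 of the 14 and in 5.29%, among them a second Spp1 window. No matches of different motifs overlapped. A match is a stretch of letters and not a measured binding site.

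The genes whose levels followed Bglap most closely over the 9 libraries, among 9474 named genes with a mean of at least 2 FPKM, were Col5a2 (Pearson r 0.986 on log2 values), Car3 (0.982), Cthrc1 (0.981), Bambi (0.979) and Ppic (0.977). Col5a2 encodes a fibrillar collagen chain, Cthrc1 a secreted collagen-associated protein, Bambi a decoy receptor of TGF-beta family ligands, Car3 a carbonic anhydrase and Ppic a cyclophilin. Col5a2 stood at 37.44, 34.36 and 33.58 FPKM in young controls, at 10.75, 13.11 and 11.36 FPKM in aged controls and at 36.02, 21.89 and 54.01 FPKM in labelled-knockout libraries. Of the members, Bglap2 (0.995) and Sparc (0.953) were nearest to Bglap, followed by Alpl (0.865), Ibsp (0.77), Spp1 (0.742) and Dmp1 (0.623), with Bglap3 at −0.19. Spp1 had other neighbours: Utp3 (0.983), Hsdl2 (0.957), Ppp1cb (0.947), Nasp (0.945) and Grcc10 (0.943), whose levels were modest, such as 22.43, 22.27 and 22.95 FPKM of Utp3, a nucleolar protein of ribosome assembly, in young controls against 15.54, 15.39 and 11.55 FPKM in aged controls. These correlations are over 9 libraries that also share group, depth and composition, and they are descriptions.

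The wider osteoblast programme was followed in 22 further matrix and regulator genes, all tested. With age 9 fell and none rose, with a median of −1.38. Those with the smallest p were Col5a2 (−1.51, SE 0.30), the Wnt inhibitor Wif1 (−2.15, SE 0.43), Cthrc1 (−3.11, SE 0.67) and Col1a1 (−2.63, SE 0.57). With immunoglobulin genes left out only 1 of the 22 fell, with a median of −1.10. In the labelled-knockout libraries relative to aged controls 6 rose and none fell, with a median of 1.22, among them Sp7, the osteoblast transcription factor osterix (1.70, SE 0.29), Col1a1 (2.90, SE 0.57), Col1a2 (2.12, SE 0.42) and Col5a2 (1.5, SE 0.30). Sp7 stood at 6.27, 6.85 and 6.71 FPKM in aged controls and at 23.26, 15.65 and 36.42 FPKM in labelled-knockout libraries. Without labelled-knockout replicate 2, 18 of the 22 fell with age and 15 rose in the labelled-knockout libraries relative to aged controls. Calls over all genes tested were also more numerous in that fit. With age 2118 fell and 611 rose, and relative to aged controls 1365 rose and 530 fell. Relative to young controls 29 rose and 8 fell. Counts from that fit for the lists below are to be read beside these totals. Against young controls none of the 22 passed, with 2 at an unadjusted limma p under 0.05.

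A further list held enzymes, transporters and inhibitors that act on phosphate, pyrophosphate, vitamin K or matrix vesicles. Of 15 tested genes of this mineralisation machinery none passed with age (5 at an unadjusted limma p under 0.05; median −0.55). Those with the smallest p were the phosphate transporter Slc20a2 (−0.84, SE 0.27, adjusted p = 0.118) and Vkorc1 (−1.17, SE 0.38, adjusted p = 0.121), which recycles the vitamin K that osteocalcin carboxylation needs. In the labelled-knockout libraries relative to aged controls 1 rose, Smpd3, a sphingomyelinase needed for bone mineralisation (median of the list 0.53). It stood at 1.21, 1.51 and 1.0 FPKM in aged controls and at 33.26, 6.33 and 68.98 FPKM in labelled-knockout libraries. The difference was 3.54 (SE 0.69, limma adjusted p = 0.0311). The young controls, at 8.49, 10.64 and 4.44 FPKM, lay above the aged controls and overlapped the labelled-knockout libraries. Against young controls none passed (1 at an unadjusted p under 0.05). Without labelled-knockout replicate 2, 5 of the 15 fell with age and 6 rose relative to aged controls. Relative to young controls 1 rose, Smpd3 (2.54, limma adjusted p = 0.039). Over all genes tested in that fit the same counts were 2118, 1365 and 29.

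Of 5 tested osteocyte genes none passed in any comparison (1, 2 and 2 at an unadjusted limma p under 0.05 with age, for labelled-knockout libraries relative to aged and to young controls). Sgms2, a sphingomyelin synthase, had the smallest p in the first 2 of these comparisons (−1.25, adjusted p = 0.13; 1.08, adjusted p = 0.196). Leaving out labelled-knockout replicate 2, Sgms2 fell with age, and Sgms2, Fbln7 and Tnfrsf11b, 3 of the 5, rose relative to aged controls. Among 10 tested receptors of the members, mainly integrins, 1 passed in 1 comparison. Itga9, an integrin chain that binds osteopontin, rose in the labelled-knockout libraries relative to aged controls (1.29, SE 0.28, adjusted p = 0.0408), from 1.76, 2.34 and 2.42 FPKM to 9.66, 4.72 and 6.61 FPKM. It missed the threshold in the fit that omitted immunoglobulin genes (1.13, adjusted p = 0.0626). No receptor passed with age (4 at an unadjusted limma p under 0.05) or against young controls (0 at that level). Cd44, an osteopontin receptor also present on leukocytes, was nearest with age, at 5.13, 7.69 and 7.54 FPKM in young controls but at 21.55, 18.01 and 15.08 FPKM in aged controls (1.31, SE 0.33, adjusted p = 0.0583), and passed in the fit that omitted immunoglobulin genes (1.60, adjusted p = 0.0322). In the fit without labelled-knockout replicate 2, 8 receptors were tested; Cd44 rose and Itga9 and Itgav fell with age, and Itga5 and Itga9 rose and Cd44 fell in the labelled-knockout libraries relative to aged controls. Gprc6a, a proposed osteocalcin receptor, was at 0 in all 9 libraries.

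Levels of markers of other cell types differed along with osteocalcin. Of 12 tested chondrocyte markers none passed with age (8 at an unadjusted limma p under 0.05; median −2.36), and 8 rose in the labelled-knockout libraries relative to aged controls (median 4.70), among them Snorc (5.62), Sox9 (2.94), Col10a1 (4.62) and Col9a2 (5.31). Relative to young controls none passed, though all 12 differences were positive (7 at an unadjusted p under 0.05; median 2.12). Of the 12 genes, 10 fell with age, 12 rose relative to aged controls and 6 rose relative to young controls when labelled-knockout replicate 2 was left out. Their summed level was 168 to 406 FPKM in young controls and 43.6 to 68.1 FPKM in aged controls. It was 1401, 198 and 3772 FPKM in labelled-knockout libraries, so the library with the least osteocalcin of that group also had the least cartilage RNA and the one with the most had the most. None of the 13 listed chondrocyte markers was at 0 in all libraries. The part of these cells in the osteocalcin result was not tested. In labelled-knockout replicate 2 the cartilage sum and Bglap were both above every aged control. The cartilage sum was 198 FPKM against at most 68.1 FPKM, and Bglap was 206.87 FPKM against at most 42.67 FPKM. Set against the young controls, that cartilage sum was within their range and Bglap was below it.

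Markers of blood cells were tested by lineage. Of 10 tested pan-leukocyte markers 8 rose with age and 7 fell in the labelled-knockout libraries relative to aged controls. Those with the smallest p included Cd37 (3.70 and −3.00) and Lcp1. Cd37, Lcp1, Spi1 and Laptm5 entered the test only through the aged controls, so their calls are not independent of the filter. The pan-leukocyte list summed to 54.1 to 125 FPKM in young controls and to 652 to 2314 FPKM in aged controls. In labelled-knockout libraries it summed to 41.4, 774 and 138 FPKM. Of 10 tested plasma and B lineage markers 5 rose with age and 1 fell in labelled-knockout libraries relative to aged controls. The list summed to 240 to 287, 699 to 1987 and 318 to 1417 FPKM in young, aged and labelled-knockout libraries. Without labelled-knockout replicate 2 the counts were 9 and 6, and those of pan-leukocyte markers 9 and 9. Cd79a, Cd79b, Irf4, Ms4a1, Mzb1, Prdm1 and Tnfrsf17 likewise entered the test only through the aged controls. In labelled-knockout replicate 2 the pan-leukocyte sum of 774 FPKM was within the aged range, but most of it was Cd52 (544.91 FPKM) and Fcer1g (160.04 FPKM). Every other listed pan-leukocyte marker was below all aged controls there, such as Lcp1 at 0.74 FPKM against at least 10.59 FPKM. Its osteocalcin was above the aged range. The part of blood cells in the differences was not tested; with immunoglobulin genes left out, Bglap differed by −4.39 with age (adjusted p = 0.00811) and by 4.02 in the labelled-knockout libraries relative to aged controls (adjusted p = 0.012), and Spp1 by −1.70 with age (adjusted p = 0.0363).

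**Figure D4:**
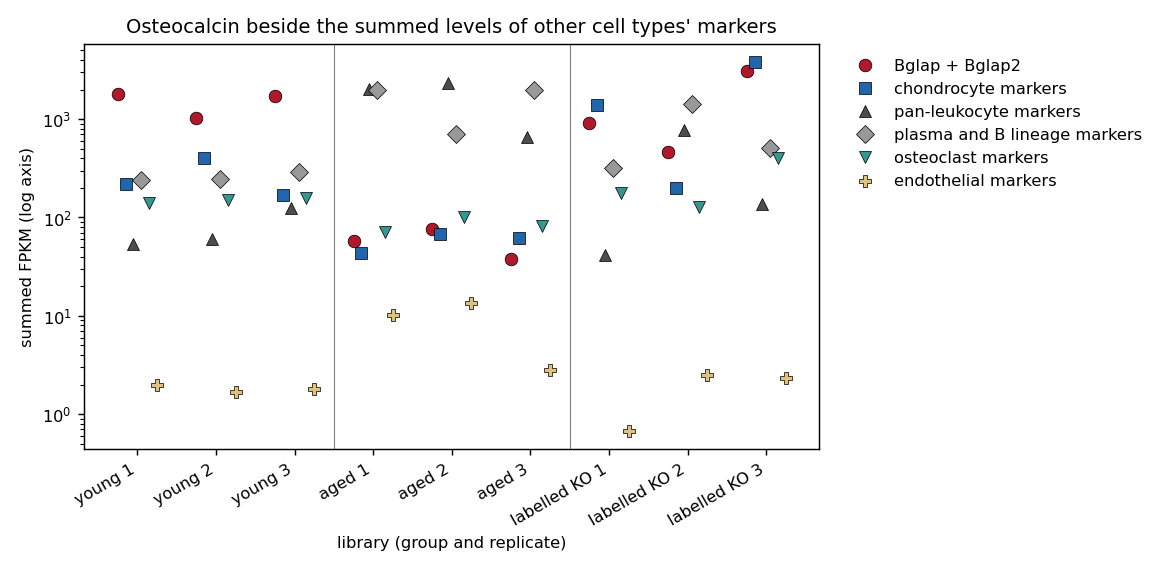
Summed FPKM of osteocalcin (Bglap plus Bglap2) and of marker lists of other cell types in each of the 9 libraries, on a log axis; points of 1 library are set slightly apart from left to right. Osteocalcin and chondrocyte sums are low in the 3 aged controls and high in labelled-knockout replicates 1 and 3, and pan-leukocyte sums are high in aged controls and in labelled-knockout replicate 2.

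Markers of osteoclasts and macrophages, which can make Spp1, were followed as well. Among the osteoclast markers Ctsk stood at 54.61 to 160.77 FPKM over the 9 libraries. Of 4 tested osteoclast markers none passed in any comparison (2, 2 and 0 at an unadjusted limma p under 0.05; without labelled-knockout replicate 2, Ctsk and Mmp9 fell with age and rose relative to aged controls), with sums of 140 to 158 FPKM in young controls, 71.5 to 101 FPKM in aged controls and 127 to 402 FPKM in labelled-knockout libraries. Ocstamp, which is needed for osteoclast fusion, was at 0 in all 9. Of 3 tested macrophage markers none passed (0, 2 and 1 at an unadjusted p under 0.05), and the sums of the list, 10.6 to 27.3 FPKM over all libraries, overlapped between the groups. Of 8 neutrophil markers 2 rose with age, Mpo and Cxcr2, and the median of the list was −0.51. The other 6 had negative differences that did not pass. Mpo and Cxcr2 also fell in the labelled-knockout libraries relative to aged controls. Both were high enough to test only through the 3 aged controls (12.6, 4.23 and 13.36 FPKM of Mpo; 24.31, 36.15 and 2.19 FPKM of Cxcr2). In every other library both were at most 0.30 FPKM, so their calls are not independent of the filter. Endothelial markers summed to 1.69 to 2.0, 2.8 to 13.5 and 0.68 to 2.48 FPKM in the 3 groups. Of the 8 only Pecam1 was high enough to test, and only through the 3 aged controls (9.34, 11.58 and 2.07 FPKM). Pecam1 rose with age (2.78, SE 0.47) and fell in labelled-knockout libraries relative to aged controls (−2.55, SE 0.47). Among the untested endothelial markers, only Erg had a higher mean in aged than in young controls (0.193 against 0.103 FPKM), and Emcn was lower in every aged control. Of 4 megakaryocyte markers 1, Itga2b, rose with age, and the other 3 had negative differences that did not pass (median −0.42). Of 7 erythroid markers none passed in any comparison (1, 0 and 0 at an unadjusted p under 0.05); without labelled-knockout replicate 2, 1 fell with age and 1 rose relative to aged controls, Epor in both. Of 12 stromal identity genes 2 fell with age, Lpl (−1.51, SE 0.23) and Adipoq (−1.34, SE 0.29), none passed in the other comparisons (1 and 4 at an unadjusted p under 0.05), and their median with age was −0.81. With labelled-knockout replicate 2 left out, 8 of the 12 fell with age, 1 rose relative to aged controls and 1 fell relative to young controls. In the fit that omitted immunoglobulin genes 1 of them, Lpl, fell with age, and the median was −0.50.

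The calls were checked by leaving out each library in turn. With age, Bglap and Bglap2 kept their calls in 6 of the 9 fits and lost them without young control replicate 1 or 3 or aged control replicate 1, with log2 differences over 20 alternatives of −4.97 to −4.36 for Bglap and −4.90 to −4.32 for Bglap2. In the labelled-knockout libraries relative to aged controls both kept their calls in 7 of the 9 and lost them without aged control replicate 1 or 2, with ranges of 3.47 to 5.48 and 3.52 to 5.28. In a fit of those 6 libraries alone neither passed (Bglap 4.23, adjusted p = 0.119; Bglap2 4.27, adjusted p = 0.094) in limma, which then estimated the spread from fewer libraries. Without labelled-knockout replicate 2 the number of the 8 genes that passed rose from 3 to 6 with age and from 2 to 5 against aged controls. The calls added among the 8 were Ibsp, Alpl and Sparc in both. Over all genes tested, those that fell with age went from 176 to 2118, and those that rose against aged controls from 182 to 1365.

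**Figure D5:**
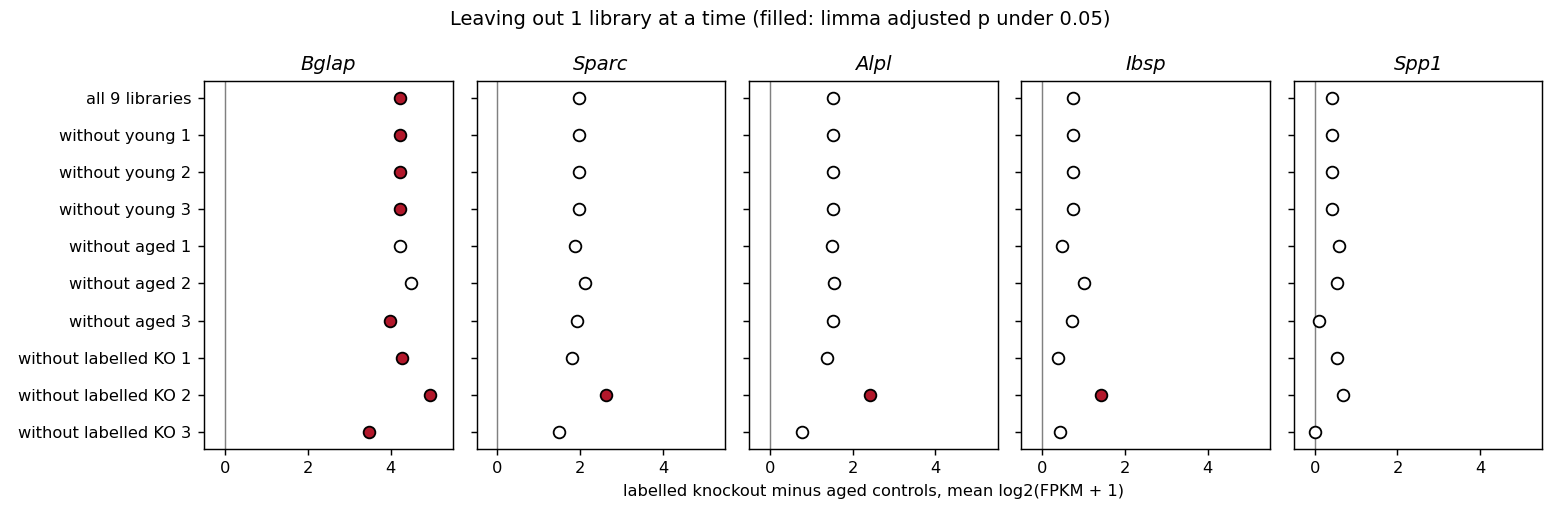
Difference in mean log2(FPKM + 1) between labelled-knockout libraries and aged controls with all 9 libraries and without each in turn, for 5 genes; filled points passed limma's adjusted p threshold. Bglap stays between 3.47 and 4.96, and Sparc, Alpl and Ibsp pass only without labelled-knockout replicate 2.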

How the data were processed

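RNA-seq of 9 libraries was used, with groups from the genotype label and columns matched to samples by title. The authors deposited FPKM per gene, rounded to 2 decimals, as 1 table of all libraries. FastQC 0.11.5, STAR, edgeR and the build GRCm38 (mm10) are named, per the submitters' processing notes; the sources used here do not give the annotation, the counter or the treatment of shared reads. The members and lists were chosen with earlier results of these data known, so no list is independent support.

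Depth came from the spacing of low FPKM in short genes with 1 transcript, at which 99.1% to 100% of these values were whole reads within 0.1; GENCODE M21 gave 1 model for 30128 of the 30579 symbols (98.5%). Estimated reads are FPKM times exonic length times depth, for counting error only. Genes with at least 1 FPKM in 3 or more libraries were tested in R 4.3.3 with limma 3.58.1 (intensity trend, log2(FPKM + 1), all 9 libraries in 1 fit, Benjamini-Hochberg over 11988 genes), which was tested on simulated data; a pseudocount of 1 understates changes of low genes. Genes under the filter had exact permutation tests. Named genes were all members and, from each list, up to 4 that passed with the smallest p or up to 2 where none did; likeness named the 5 genes of at least 2 FPKM with the highest correlation with Bglap and with Spp1. A further 21 settings were tried. Promoter windows came from RefSeq, and coding sequences from GENCODE M21.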

Additional observations from a re-analysis of the deposited data

How the results depend on the processing

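Directions of Bglap, Bglap2, Spp1, Ibsp, Alpl, Sparc and Dmp1 with age held in every one of the 20 or 21 alternatives run for each. With 3 members passing with age, the count was 7 with array weights, 6 in a fit of the compared groups only, 6 with median-ratio rescaling without labelled-knockout replicate 2 (a setting chosen after seeing the data), and 0 to 6 over the fits without 1 library. Against aged controls the 2 became 1 without a filter, 6 with array weights, 0 in the fit of the compared groups, 4 with the added setting and 0 to 5 without 1 library. Against young controls the 0 became 4 with array weights and stayed 0 without 1 library. All genes passing with age numbered 484 (308 higher, 176 lower), and 138 without a filter, 7419 with array weights (1622 and 5797), 2128 in the fit of the compared groups (550 and 1578), 1268 with the added setting and 4 to 2729 without 1 library; the split was 358 to 68 with median-ratio rescaling, 382 to 66 with immunoglobulin genes left out and 168 to 201 at a minimum of 5 FPKM. Against aged controls 417 (182 and 235) became 92 without a filter, 199 at a minimum of 5 FPKM (120 and 79), 6347 with array weights (4700 and 1647), 14 in the fit of the compared groups, 1354 with the added setting and 13 to 1895 without 1 library, with 178 to 352 under median-ratio rescaling and 134 to 398 with immunoglobulin genes left out. Against young controls 3 became 1414 with array weights, 1 in the fit of the compared groups, 49 with the added setting and 2 to 37 without 1 library. The fit of compared groups and those without 1 library have fewer samples; the other causes were not tested.

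Signs turned only for values that had not passed. Against young controls, array weights, the fit without labelled-knockout replicate 2 and the added setting gave 0.99, 0.26 and 0.32 for Bglap, 0.95, 0.11 and 0.17 for Bglap2, and 0.99, 0.72 and 0.78 for Alpl, which median-ratio rescaling put at 0.035; over the fits without 1 library the ranges were −1.23 to 0.26, −1.14 to 0.11 and −0.92 to 0.72. Sparc was at −0.022 without labelled-knockout replicate 1 and −0.36 without replicate 3. Against aged controls Bglap3 was at 0.067 with array weights and Dmp1 at −0.046 without aged control replicate 3 (−0.046 to 1.23 without 1 library). Whether replicate numbers pair the libraries was not settled: same-numbered deviations correlated at −0.29 to 0.30, and different-numbered ones were not computed for comparison. With the replicate number as a block, 120 genes and 2 members passed with age, 64 genes and 1 member against aged controls, and 2 genes and 0 members against young controls. Depth limits Phospho1, Mepe and Bglap3, which had at most an estimated 10.0, 64.9 and 113.6 reads in a library.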
